A study of Mus musculus and Homo sapiens with 10 samples.

Results

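KLF6 is a zinc-finger transcription factor of the Krüppel-like family, which binds GC-rich promoter sequence and is studied as a regulator of growth and differentiation and, in several cancers, as a tumour suppressor. Trimethylation of histone H3 at lysine 4 (H3K4me3) is laid down around the start of active genes by methyltransferase complexes that contain WDR5. At some highly expressed genes the mark spreads from the start into the gene body as a broad domain. CBX8 is a chromodomain subunit of Polycomb repressive complex 1, and the title of the study joins it with Wdr5 in mammary tumour formation.

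The data described here are the regions of changed H3K4me3 around KLF6, on chromosome 10 from 3 to 5 Mb (hg19), in MDA-MB-231-Luc cells. A region belonged to the window if it overlapped it by at least 1 bp, and 16 regions did, of the 3852 in the human H3K4me3 lists and the 4818 in all 8 lists of the series. The window was chosen by measured values, namely the clustering of regions in the authors' higher list. Its counts, directions and spacing are therefore described without a test. KLF6 was placed at about 3818000 to 3828000, a position rounded to 1 kb. It is read on the reverse strand, so its start is the high-coordinate end and its upstream side runs towards higher coordinates.

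MDA-MB-231 cells are a widely used human line derived from breast cancer. The knockdown library came from MDA-MB-231-Luc cells infected with lentivirus carrying a hairpin against CBX8, and its control library from MDA-MB-231-Luc cells with a scrambled hairpin, labelled wild type. Per the labels' protocols both cultures were selected with puromycin at 2 µg/ml for at least 4 days, from 2 days after infection. By the same protocols, both libraries were made with the same H3K4me3 antibody from chromatin cut with micrococcal nuclease. Each condition had 1 library, so no difference has a replicate check, and the sources used here do not give the hairpin's sequence. The lists hold positions only, with no read count or fold, so neither sequencing depth nor the size of a change can be read from them. Sites outside the lists may also have changed without passing the authors' threshold.

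The direction of each list stands only in its name, and it is read here, as an assumption, as the CBX8 knockdown library relative to the scrambled control. On that reading, H3K4me3 at KLF6 itself was called lower after CBX8 knockdown. A single lower region of 12.3 kb, from 3817351 to 3829650 on chromosome 10, covered the whole gene at its rounded position. It reached about 0.649 kb past the 3′ end and about 1.65 kb upstream of the start, both to within the 1 kb rounding of the gene's position. The first of these is smaller than the rounding, so cover of the very 3′ end is not certain. It was among the long regions of its list, since 18 of the 1241 lower regions (1.45%) were at least 12.3 kb long, this one included. No region called higher overlapped the gene.

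Regions called higher lay on both sides of this lower region, named the lower domain below. Domain here means a long listed region, since the lists do not give the width of the mark itself. On the 3′ side, the nearest was a 1.4 kb region at 3804351 to 3805750, about 12.2 kb beyond the end of KLF6 and 11.6 kb from the edge of the lower domain. On the upstream side, a 3.15 kb region at 3846651 to 3849800 began 17 kb from the lower domain and about 18.6 kb from the start of KLF6. A 3.5 kb region at 3850701 to 3854200 followed after a gap of 0.9 kb. Within 50 kb of the gene, H3K4me3 was thus called higher over 8.05 kb in 3 regions and lower over 12.3 kb in 1 region. The gene and its close flanks were therefore called in opposite directions in the same pair of libraries.

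**Figure D1:**
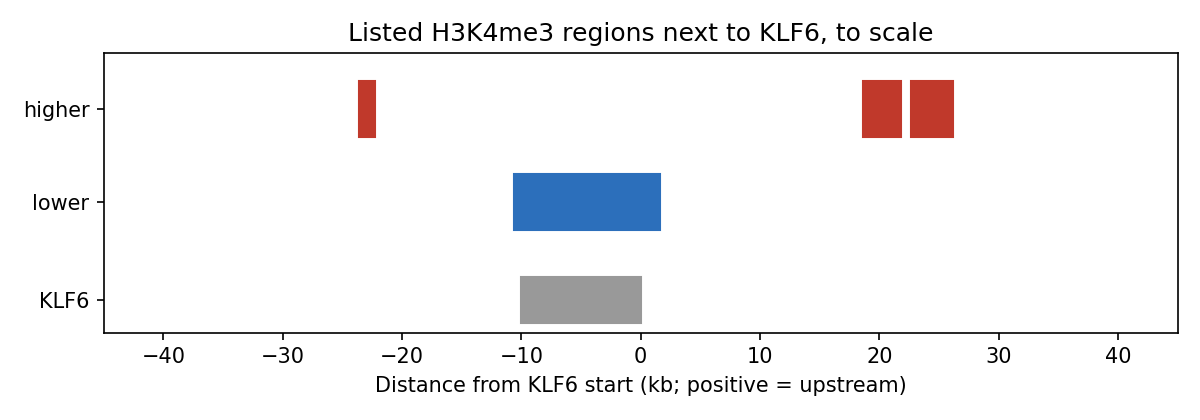
Regions called higher (top row) and lower (middle row) after CBX8 knockdown, drawn to scale against the rounded position of KLF6 (bottom row), with distance from the KLF6 start in kb on the x axis. The lower region of 12.3 kb covers the rounded position of the gene. The 3 higher regions lie outside the lower region, 11.6 kb away on one side and from 17 kb away on the other.

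Lower regions with a higher region near on both sides were also counted across the human lists. Of the 1241 lower regions, 2 had a higher region within 20 kb on each side, or 0.161%, and the domain over KLF6 was 1 of them. With 50 kb the count was 6 and with 10 kb it was 0. Among the 52 lower regions of at least 10 kb, 1 met the distance of 20 kb and 2 met that of 50 kb. The distances were chosen with the KLF6 flanks in view, and the window for its clustered higher regions. Near higher regions on both sides of the KLF6 domain follow in part from that choice. These counts therefore describe the lists, and nothing about the KLF6 domain is read from them.

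In the whole window, 14 of the 16 regions were called higher, or 87.5%, where 67.8% of all 3852 listed human regions were higher. The other 2 were lower, or 12.5%, where 32.2% of all listed human regions were lower. The window was chosen for its higher regions, and nothing is read from this contrast. In base pairs the balance was narrower, with 42.85 kb called higher and 23.25 kb called lower. Higher regions thus made up 64.8% of the changed base pairs in the window, and 48.7% in the human lists outside it. A single region of 13 kb, about 974 kb from KLF6, is part of the 42.85 kb, and the other higher regions cover 29.85 kb. This contrast rests on the same choice of window, and nothing is read from it either.

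**Figure D2:**
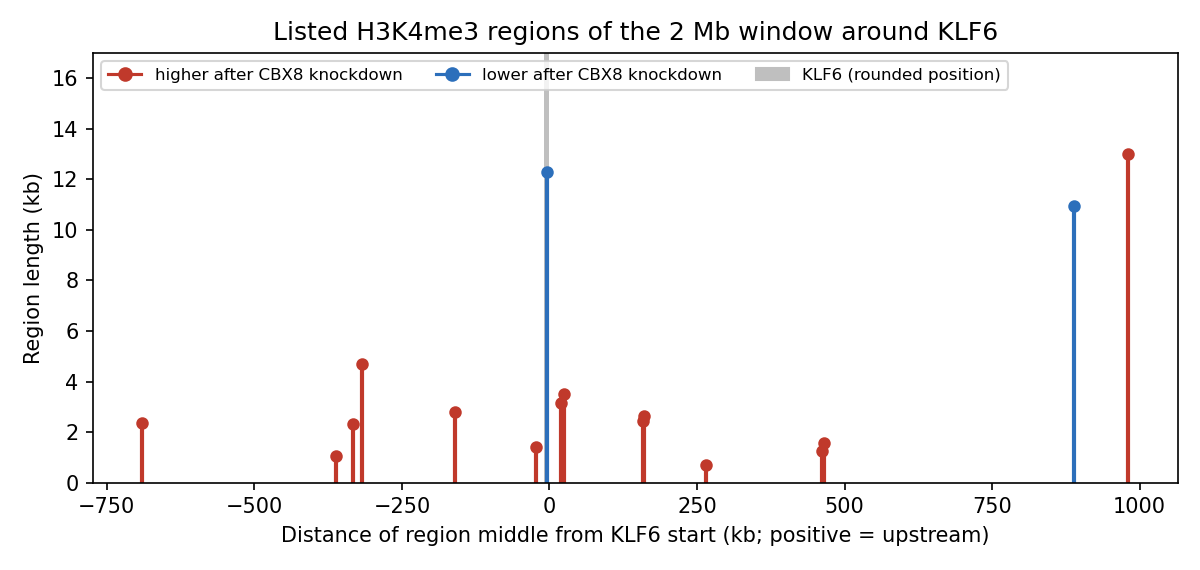
Length in kb of each of the 16 regions (y axis) against the distance of its middle from the KLF6 start in kb (x axis), with higher regions in red and lower regions in blue. The lower regions of 12.3 and 10.95 kb and the higher region of 13 kb stand above the other 13 regions, which are 0.7 to 4.7 kb long.

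On the 3′ side of KLF6, all 6 listed regions were higher, at distances of 12.2 to 679 kb and with lengths of 1.05 to 4.7 kb. Apart from the region next to the gene, the closest was a 2.8 kb region at 3665801 to 3668600, about 149 kb away. Beyond it, a group of 3 regions spanned 45.75 kb. They were 4.7 kb at 3507201 to 3511900, 2.3 kb at 3494001 to 3496300 and 1.05 kb at 3466151 to 3467200, about 306, 322 and 351 kb from the gene. The 4.7 kb region was longer than 92% of all higher regions, while the 1.05 kb region was longer than only 18% of them. The farthest was a single region of 2.35 kb at 3137001 to 3139350, about 679 kb from KLF6.

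On the upstream side, 8 regions were higher and 1 was lower, at distances of 18.6 to 974 kb from the gene. Apart from the pair next to the gene, there were 2 more pairs of neighbouring higher regions. The nearer pair, at 3984601 to 3987050 and 3987601 to 3990250, was about 157 and 160 kb away, with lengths of 2.45 and 2.65 kb and a gap of 0.55 kb. The other, at 4288801 to 4290050 and 4291701 to 4293250, was about 461 and 464 kb away, with lengths of 1.25 and 1.55 kb and a gap of 1.65 kb. Between the pairs lay the shortest region of the window, 0.7 kb at 4093251 to 4093950, about 265 kb upstream and longer than 3.56% of all higher regions.

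No region was listed over the next 417.4 kb. The far upstream end of the window then held a second long lower domain of 10.95 kb, at 4710601 to 4721550 and about 883 kb from KLF6. After a gap of 80.5 kb it was followed by the longest higher region of the window, 13 kb at 4802051 to 4815050, about 974 kb from KLF6. Only 2 of the 2611 higher regions were longer than this one. Thus the 3 longest regions of the window were called in both directions, and 2 of them lay close together, far from KLF6.

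The 14 higher regions had a median length of 2400 bp, with quartiles of 1438 and 3062 bp. Outside the window, the 2597 higher regions had a median of 1750 bp, with quartiles of 1150 and 2800 bp. Higher regions elsewhere on chromosome 10 lay between, with a median of 2050 bp (n = 145). Without the 13 kb region, the 13 others in the window ranged from 700 to 4700 bp with a median of 2350 bp, and 8 of them were longer than the 1750 bp median of all higher regions. The 14 regions are part of the higher list, so their lengths lie within its range by construction. The 2 lower regions, of 12.3 and 10.95 kb, were both far above the median of 4400 bp of the 1239 lower regions outside the window. Regions of at least 10 kb numbered 3 of 16 in the window and 65 of 3852 (1.69%) in all. By direction they were 2 of 2 lower regions in the window, where 52 of all 1241 lower regions (4.19%) were as long. Among higher regions they were 1 of 14 in the window and 13 of 2611 (0.498%) in all.

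**Figure D3:**
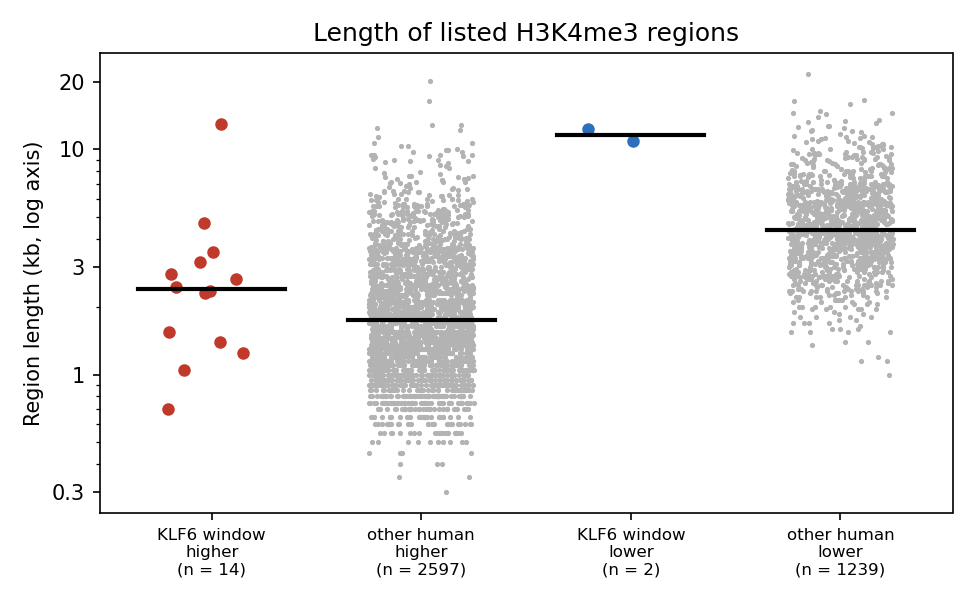
Length in kb (log axis) of each higher region (left pair of columns) and lower region (right pair), in the KLF6 window and in the rest of the human lists, with a black line at the median. The medians of higher regions are 2400 bp in the window and 1750 bp elsewhere, and both lower regions of the window lie well above the 4400 bp median of lower regions elsewhere.

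Some of the higher regions of the window were closely spaced. The median gap from a higher region of the window to the next was still 117 kb, where that of the whole higher list was 552.8 kb. In the window, 6 of the 14 higher regions (42.9%) lay within 2 kb of another higher region. Elsewhere this held for 33 of 2597 (1.27%). At a gap of up to 100 kb the counts were 10 of 14 (71.4%) in the window and 759 of 2597 (29.2%) elsewhere. The human higher list held 20 gaps of at most 2 kb in all, and 3 of them were the upstream pairs described above. The smallest of these, 550 bp, was close to the smallest gap anywhere in the list, which was 450 bp. Joining regions across gaps of up to 5000 bp reduced the 14 higher regions to 11. These gaps follow from the clustering for which the window was chosen.

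**Figure D4:**
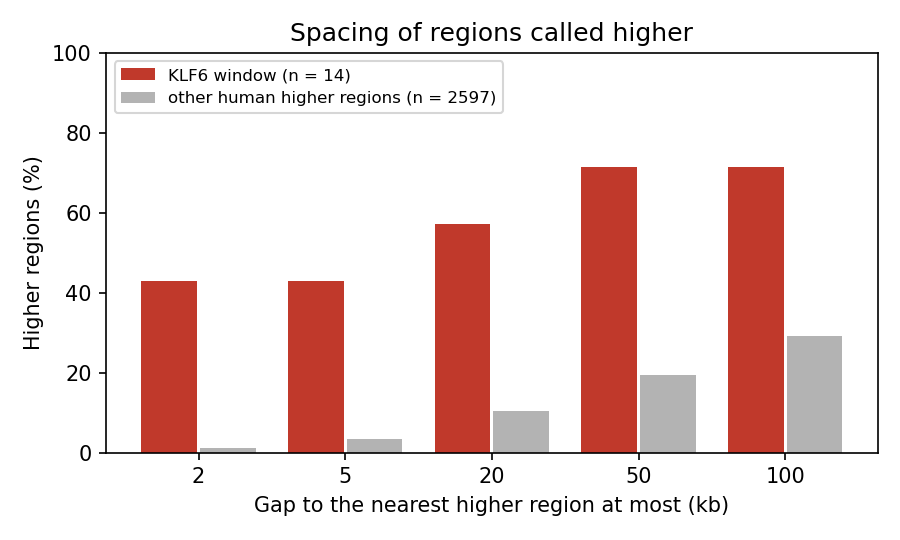
Share in percent of higher regions whose nearest higher region lies within the gap on the x axis (kb), for the 14 of the KLF6 window (red) and the 2597 others of the human list (grey). At 2 kb the shares are 42.9% in the window and 1.27% elsewhere, and at 100 kb they are 71.4% and 29.2%.

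Higher regions were also counted in stretches of 2 Mb across the genome. With the genome divided into 2 Mb bins so that the window is 1 of them, it held 14 higher regions. The median of the 1199 bins with a listed region was 2, and the next highest bin held 10. With the bins moved by 1 Mb, the bin with the most was again on chromosome 10, from 2 to 4 Mb, with 18 higher regions and 1 lower region. That lower region was the domain over KLF6, and the next highest bin held 11 higher regions. The window thus held the most on its own grid only, and the overlapping stretch from 2 to 4 Mb held more. The window was proposed for this clustering, so these counts are a description.

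**Figure D5:**
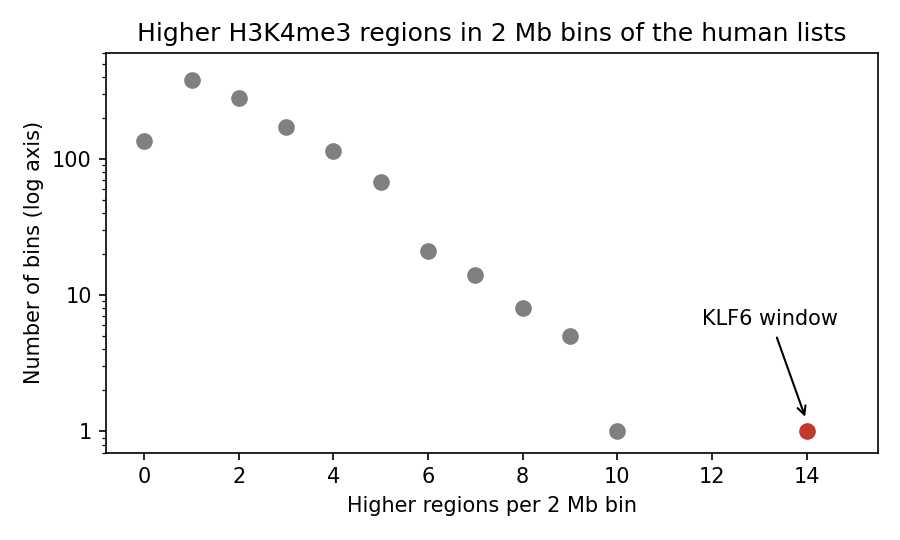
Number of 2 Mb bins of the human lists (y axis, log scale) by the number of higher regions they hold (x axis), over 1199 bins with at least 1 listed region. The KLF6 window is the red point at 14, and the next highest bin holds 10.

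The edges of the window fell inside a longer stretch of higher regions on one side. Just outside the low-coordinate edge were higher regions of 1.1 kb at 2991701 to 2992800, which ended 7.2 kb from the edge, and of 0.6 kb at 2964451 to 2965050, which ended 34.95 kb from it. From 2 to 3 Mb chromosome 10 held 8 higher and 0 lower regions, and from 3 to 4 Mb it held 10 higher and 1 lower. From 4 to 5 Mb the counts were 4 higher and 1 lower, and from 5 to 6 Mb 2 higher and 1 lower. Past the high-coordinate edge, the first region was a higher one of 2.3 kb at 5332701 to 5335000, 332.7 kb away, and the next was a lower one of 5.3 kb at 5488101 to 5493400. From 2 to 6 Mb, the count of higher regions was thus 10 in the Mb that holds KLF6 and 8 in the Mb before it, and lower beyond 4 Mb. The 10 include neighbouring regions with gaps of only 0.9 and 0.55 kb, each counted singly. The window was chosen for clustered higher regions, so these counts are a description and no peak at KLF6 is read from them.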

How the data were processed

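H3K4me3 ChIP-seq regions came from the 2 deposited human lists, which set 1 CBX8 knockdown library against 1 scrambled control. Each deposited list holds genome positions only, with no score, and the direction and a q-value threshold of 0.002 stand in the names of the authors' lists. The direction was taken as knockdown relative to scrambled control, which the names do not spell out. The submitters' processing notes name hg19 as the human build and list SICER, MACS2 2.1.0, Bowtie 1.0.0 and FastQC 0.10.0, with no role for each. The sources used here do not give which tool called the changed regions, or any scaling for depth. All human starts and ends lay on a grid of 50 bp when starts are read from 0 and ends as included, and 0 regions overlapped. Coordinates are printed counted from 1.

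Lengths, gaps and edge-to-edge distances to KLF6 were computed with Python 3.11.15 and numpy 2.4.6, and the interval used below with scipy 1.17.1. The code was tested on simulated regions. With 1 library per condition, no test was run. Every region of the window is named. The window, the gene list and the alternatives were chosen with earlier results of these data known. No hg19 annotation was used here, so only KLF6 was placed, by a rounded position, and the planned reading of its neighbours and of other KLF genes was not run. The 6 mouse lists were used for the count of regions only.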

Additional observations from a re-analysis of the deposited data

How the results depend on the processing

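Of 30 alternative values over 6 results, 24 stayed within 1.5 times the value reported or, for the higher share, within its 95% Clopper-Pearson interval of 61.7 to 98.4%, which takes neighbouring regions of 1 pair of libraries as independent units. That interval is wide enough to hold the 67.8% of all listed human regions, so staying within it says little about stability. The higher share was 84.6 to 92.3% under every alternative that counts regions, and 64.8% in base pairs, where all human regions gave 48.8%. A window of 2 to 6 Mb held 24 higher regions in place of 14, at a median distance to KLF6 of 571 kb in place of 286 kb, by construction of a wider window. With 500 kb on either side of KLF6 the lower regions numbered 1 in place of 2. The same count of 1 was found from 3 to 4 Mb, an alternative chosen after seeing the data, and in both cases it was the domain over the gene. Lower regions with higher regions near on both sides numbered 2 at 20 kb, 0 at 10 kb and 6 at 50 kb, distances also chosen after seeing the data. No paired analysis was possible because each condition has 1 library. The depth is unknown, so a missing region may be unchanged or under the threshold.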

Other observations

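Stretches of regions with 1 direction were counted around KLF6. From 1771701 to 3805750 on chromosome 10, 15 listed regions in a row were called higher over 2.03 Mb, 6 of them in the window. The next region was the lower domain over KLF6, and after it 7 regions in a row were higher over 0.447 Mb. The window's remaining higher region, beyond its second lower domain, belonged to a stretch of 2. Among 684 such stretches of higher regions in the human lists, the median held 3 regions and the longest 23, and 12 held more than 15. Of the 684 stretches, 17 held at least 15 regions, 111 at least 7 and 490 at least 2. Without the domain over KLF6, the stretches on its sides would join into 22 higher regions over 2.52 Mb, and 1 other stretch would be at least as long. The stretches were picked because they touch KLF6, so this is a description.

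Both lower regions of the window had a higher region next to them on each side. Outside the window this held for 398 of 1224 lower regions (32.5%), and for 22 of 49 of those of at least 10 kb (44.9%), so with 2 regions it does not set the window apart.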
